A study of Drosophila melanogaster with 140 samples.

Results

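The 10 genes described here encode ligand, receptor, inhibitor, adaptor and transcription factor components of the Toll and Imd pathways of Drosophila melanogaster: spz, Tl, cact, dl and Dif for Toll, and PGRP-LC, imd, Rel, pirk and PGRP-LB for Imd. They were chosen by symbol for their place in the pathways, with the antimicrobial peptide genes left aside, and all 10 were found among the 17562 genes of the counts table. In the dm6 genome, spz (FBgn0003495) lies on chromosome 3R at 27064990 to 27070070, Tl (FBgn0262473) on 3R at 26799041 to 26842403, Rel (FBgn0014018) on 3R at 9044183 to 9047977 and PGRP-LB (FBgn0037906) on 3R at 11452849 to 11460552. The inhibitor gene cact (FBgn0000250) lies on 2L at 16313036 to 16326207, with dl (FBgn0260632) on 2L at 17436830 to 17450364 and Dif (FBgn0011274) nearby on 2L at 17413248 to 17433161. PGRP-LC (FBgn0035976) is on 3L at 9338810 to 9348336, imd (FBgn0013983) on 2R at 18409796 to 18413599 and pirk (FBgn0034647) on 2R at 21660967 to 21662995. Reads were counted over exons, and the strand setting was not given in the sources used here. For that reason reads of spz and CG43935, cact and fzy, Dif and CG15141, and imd and GstE9, which share exon sequence on opposite strands, cannot be told apart.

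The Toll and Imd pathways are the NF-κB routes of innate immunity in flies. In the Toll pathway, a protease cascade cleaves Spätzle, the cleaved ligand binds the receptor Toll, and the IκB protein Cactus is degraded, which frees the NF-κB factors Dorsal and Dif. In the Imd pathway, the receptor PGRP-LC binds bacterial peptidoglycan and signals through the adaptor Imd to the NF-κB factor Relish, while Pirk holds back the receptor complex and the amidase PGRP-LB degrades peptidoglycan. Both pathways switch on antimicrobial peptide genes, in the fat body and in other tissues including glia.

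RNA was measured in 140 libraries from 42 groups of male flies. Heads were taken at 34d and 5d from flies with Mettl3 RNAi (ime4 RNAi in the labels, an earlier name of the m6A methyltransferase gene) and from controls with RNAi against mCherry, all under the ubiquitous DaGal4 driver, and each of the 3 replicates, a pool of heads, gave 1 input and 1 m6A-IP library. Heads and brains at 6d came from flies with neuronal Aβ42 expression (ElavGal4c155 driving UAS-AB(2x) in the labels) and from flies expressing mCD8GFP in its place. FACS-sorted brain cells and TRAP samples of brains, in which FLAG-tagged RpL3 is pulled down with its ribosome-bound mRNA, were taken at 34d and 5d with Mettl3 or mCherry RNAi under RepoGal4 (glia) or ElavGal4 (neurons). In the sorted cells and TRAP samples the RNAi was therefore driven only in the cells of the driver, and repoGFP- cells are the unlabeled cells of the same brains. Groups held 3 or 4 libraries, except the Aβ42 heads with 2. Labels call replicates separate samples without saying which flies or days they share, so p-values measure the spread between these samples.

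Reads counted on genes per library ranged from 20141287 to 36361242 in the head m6A experiment, from 17513035 to 22746821 in heads and brains with Aβ42, from 10575300 to 21968057 in sorted cells and from 2132983 to 17891755 in TRAP samples. Levels are given as CPM, counts scaled to the library total after TMM normalization within an experiment. Mettl3 (FBgn0039139, 3R) stood at 1.93, 1.82 and 2.20 CPM in Mettl3 RNAi heads at 34d, against 5.90, 5.95 and 6.27 CPM in controls, 3.01-fold lower (adjusted p = 4.35e-08). At 5d it stood at 1.85, 3.87 and 3.04 CPM in Mettl3 RNAi heads, against 4.46, 4.16 and 4.42 CPM in controls, which did not overlap but did not pass the test (adjusted p = 0.468). Replicate 1 of the 5d control heads stood apart, with summed antimicrobial peptide transcripts of 1340 CPM against 248 and 211 CPM in its replicates, and calls in the head inputs that change without it are given in both ways.

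Per exon length, cact and Rel were the most abundant of the 10 genes in control heads and pirk had the lowest mean. To compare levels between genes, CPM was divided by exon length in kb. In 34d control heads the mean levels per kb were Rel 45.8, cact 42.5, PGRP-LC 25.9, spz 24.3, Dif 24.2, imd 15.4, Tl 14.2, dl 11.9, PGRP-LB 8.94 and pirk 4.69 CPM. Of neighbours in that order, PGRP-LC and spz, spz and Dif, and imd and Tl overlapped between replicates. In 5d control heads cact led at 42.7 CPM per kb and Rel followed at 22.2, then spz 18.5, PGRP-LC 17.9, imd 16.4, Dif 15.0, Tl 10.1, dl 10.1, PGRP-LB 9.71 and pirk 6.90. Here spz and PGRP-LC, PGRP-LC and imd, Tl and dl, dl and PGRP-LB, and PGRP-LB and pirk overlapped between replicates. Brains of 6d mCD8GFP flies had another order, with cact at 24.6 and Tl at 24.4 CPM per kb, dl at only 2.03 and pirk at 0.815.

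**Figure D1:**
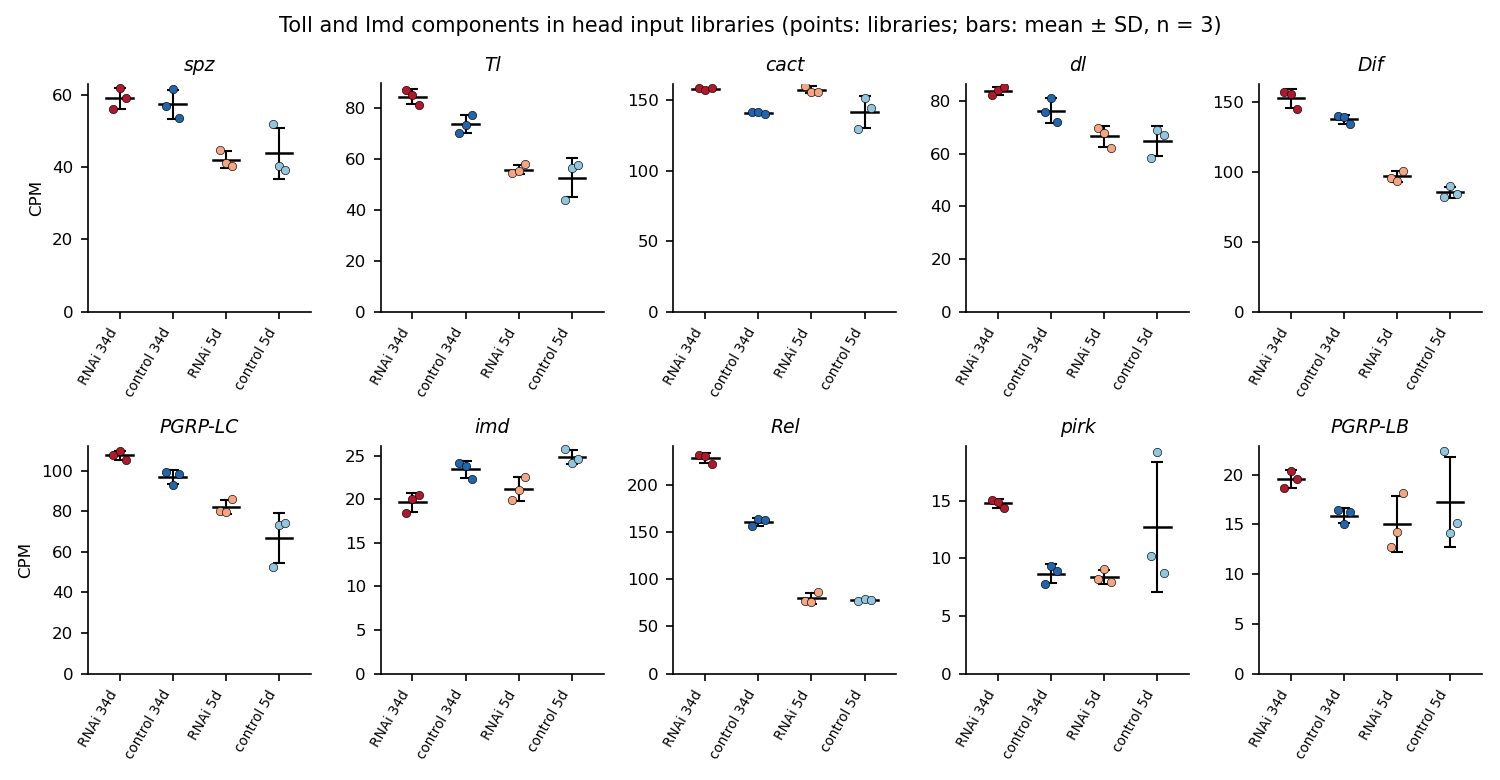
Level of each of the 10 genes in head inputs (CPM, y axis, own scale per gene) for Mettl3 RNAi and control heads at 34d and 5d. Points are replicates and bars the mean ± SD (n = 3). Rel stood between 222 and 232 CPM in 34d Mettl3 RNAi heads, above every other head input.

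To assess the effect of age, 34d control heads were compared with 5d control heads. Rel and Dif, the NF-κB factors of the Imd and Toll pathways, and the receptors PGRP-LC and Tl rose with age, and the adaptor imd fell. These 5 of 10 genes passed the test where 51.5% of all genes tested did (23.5% up and 27.9% down). The median log2 change was 0.19 over the 10 genes and -0.05 over all genes. In whole heads, fewer cells of a type and less RNA per cell cannot be told apart.

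Rel had 156, 163 and 162 CPM in 34d control heads, against 77.1, 78.9 and 77.4 CPM at 5d. The groups were far apart, and the fitted rise was 1.89-fold (log2 0.92 ± 0.07 SE, adjusted p = 0.000163). Dif had 140, 139 and 134 CPM in 34d control heads, against 82.3, 89.7 and 84.4 CPM at 5d. That rise was 1.48-fold (log2 0.56 ± 0.08, adjusted p = 0.00117), with no overlap between ages. Both calls held when any 1 of the 6 libraries was left out.

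Smaller differences decided the other calls. Tl had 70.2, 73.4 and 77.5 CPM in 34d control heads, against 43.8, 56.7 and 57.7 CPM at 5d (log2 0.36 ± 0.12, adjusted p = 0.0443). PGRP-LC had 99.4, 93.1 and 98.7 CPM in 34d control heads, against 52.7, 73.6 and 74.5 CPM at 5d (log2 0.41 ± 0.14, adjusted p = 0.0475). The adaptor gene imd moved the other way, with 24.1, 23.8 and 22.3 CPM in 34d control heads against 25.8, 24.2 and 24.6 CPM at 5d (log2 -0.21 ± 0.07, adjusted p = 0.0468). Neither receptor overlapped between ages, but Tl and PGRP-LC each kept the call in 2 of 6 fits that left out a library, and imd in 1 of 6. The weakest were those without replicate 3 of the 34d controls, with adjusted p of 0.14 for Tl, 0.128 for PGRP-LC and 0.172 for imd. The call of imd was also lost with DESeq2 (log2 -0.18, adjusted p = 0.104), RLE scaling (0.0702), no filter on low counts (0.122) and the replicate number as a block (0.101), and that of PGRP-LC with the block (0.0521).

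The ligand gene spz had 57.0, 61.6 and 53.6 CPM in 34d control heads, against 51.8, 40.3 and 39.2 CPM at 5d, and did not pass the test (adjusted p = 0.102). Replicate 1 of the 5d controls was the highest of its group for spz and the lowest for cact, at 129 CPM against 152 and 144 CPM. Without that replicate spz was higher at 34d (log2 0.41, adjusted p = 0.00111) and cact lower (log2 -0.19, adjusted p = 0.0181). The inhibitor gene pirk had 7.74, 9.32 and 8.94 CPM in 34d control heads, against 10.2, 19.2 and 8.75 CPM at 5d, where replicate 2 stood above the other head inputs. The factor dl, pirk and the amidase PGRP-LB gave log2 changes of 0.11 ± 0.10, -0.69 ± 0.30 and -0.24 ± 0.17 and did not pass. Without replicate 3 of the 5d controls pirk passed as lower at 34d (log2 -0.90, adjusted p = 0.0413).

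Of the 65 genes of a wider Toll and Imd list, 59 were tested and 15 rose and 10 fell with age in control heads. The proteases Hayan (log2 0.79) and Sp7 (log2 0.54) rose, and the Spätzle-family ligand gene spz6 (log2 -3.20) and the ubiquitin-conjugating enzyme gene eff (log2 -0.65) fell. None of 16 antimicrobial peptide genes tested passed. Summed levels of the peptide list were 592 to 706 CPM in 34d controls, against 1340, 248 and 211 CPM at 5d. Whether these genes pass without replicate 1 of the 5d controls, the highest, was not tested. The makeup of the heads also differed with age: 8 of 10 muscle markers fell, with summed levels of 2450 to 2480 CPM in 34d controls against 6860 to 12800 CPM at 5d, and 4 of 10 photoreceptor markers rose, with 57300 to 58900 CPM against 30800 to 48700 CPM. Their part in the changes was not tested.

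In Mettl3 RNAi heads, 9 of the 10 genes differed with age, 8 higher and 1 lower, where 71.8% of all genes passed. Rel had 232, 231 and 222 CPM in 34d Mettl3 RNAi heads, against 76.6, 76.0 and 86.0 CPM at 5d, a rise of 2.71-fold (log2 1.44 ± 0.05, adjusted p = 4.66e-09). Pirk transcripts stood at 15.1, 14.9 and 14.4 CPM in 34d Mettl3 RNAi heads, against 8.19, 9.10 and 7.94 CPM at 5d, a rise of 1.65-fold (adjusted p = 1e-05). For neither gene did the ages overlap.

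Tl rose 1.43-fold and Dif 1.49-fold with age in Mettl3 RNAi heads (adjusted p = 5.2e-06 and 2.06e-06), and spz, PGRP-LC and dl rose by log2 changes of 0.40, 0.31 and 0.25. PGRP-LB (log2 0.29 ± 0.11, adjusted p = 0.0358) and imd (log2 -0.19 ± 0.07, adjusted p = 0.025) passed more narrowly, keeping the call in 1 of 6 and 3 of 6 fits without a library. At the weakest, PGRP-LB had an adjusted p of 0.119 without replicate 2 of the 5d and imd of 0.108 without replicate 1 of the 34d Mettl3 RNAi heads. Only cact did not pass (log2 -0.08 ± 0.04). Of 58 genes of the wider list tested, 27 rose, among them Tab2 (log2 1.36) and Ulp1 (log2 1.02), and 13 fell, among them the ligand genes spz3 (log2 -1.995) and spz5 (log2 -1.28). Here 13 of 16 antimicrobial peptide genes rose. Summed muscle markers stood at 2410 to 2580 CPM in 34d Mettl3 RNAi heads against 8620 to 9620 CPM at 5d (8 of 10 genes fell), photoreceptor markers at 54100 to 59600 CPM against 28500 to 36700 CPM (8 of 10 rose) and fat body markers at 8220 to 10000 CPM against 5530 to 7040 CPM (3 of 8 rose and 2 fell). Fat body sums overlapped between ages in controls, at 7430 to 8640 CPM for 34d and 6650 to 8490 CPM for 5d, and the part of these markers in the members' changes or in the genotype difference of Rel was not tested.

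The change with age itself differed between genotypes for Rel. Its log2 rise was 0.51 ± 0.08 larger in Mettl3 RNAi heads than in controls (adjusted p = 0.019), where 2.03% of all genes passed, and 1 of the 10 members did. The call held in 6 of 12 fits that left out 1 library, with adjusted p between 0.00124 and 0.0706, the highest without replicate 1 of the 34d controls. The difference for pirk was larger but less sure (log2 1.40 ± 0.33, adjusted p = 0.0604). It passed with DESeq2 (adjusted p = 0.00239) and when any 1 of the 3 5d control inputs was left out, at log2 values of 1.54, 0.97 and 1.62 without replicates 1, 2 and 3 (adjusted p = 0.0334, 0.0161 and 0.0158). Without replicate 1 of the 5d controls, Tl also had a larger change in Mettl3 RNAi heads (log2 0.27, adjusted p = 0.0388). PGRP-LB gave 0.53 ± 0.23 (unadjusted p = 0.0396) and did not pass. Ulp1 (log2 0.55) and Tollo (log2 0.82), a Toll-family receptor gene, were among the 3 genes of the wider list with a larger change.

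To ask what loss of Mettl3 does at each age, Mettl3 RNAi heads were compared with controls of the same age. At 34d, 9 of the 10 genes passed, 8 higher and 1 lower, where 40.8% of all genes passed. The median log2 change was 0.17 over the 10 genes and -0.01 over all genes. The 2 with the highest fold were the Imd inhibitor gene pirk and the Imd factor gene Rel.

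Rel stood at 232, 231 and 222 CPM in 34d Mettl3 RNAi heads, against 156, 163 and 162 CPM in 34d controls (1.44-fold, log2 0.52 ± 0.04, adjusted p = 5e-08). Pirk had 15.1, 14.9 and 14.4 CPM in 34d Mettl3 RNAi heads, against 7.74, 9.32 and 8.94 CPM in 34d controls (1.73-fold, log2 0.79 ± 0.08, adjusted p = 8.27e-07). PGRP-LB had 18.6, 20.4 and 19.6 CPM in 34d Mettl3 RNAi heads, against 16.4, 15.0 and 16.2 CPM in 34d controls (1.24-fold, log2 0.31 ± 0.06, adjusted p = 0.000788). For these 3 genes of the Imd branch no Mettl3 RNAi replicate reached down to a control.

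The adaptor gene imd was the only member lower, with 18.4, 20.04 and 20.5 CPM in 34d Mettl3 RNAi heads against 24.1, 23.8 and 22.3 CPM in 34d controls (log2 -0.24 ± 0.06, adjusted p = 0.0042). PGRP-LC, Tl, cact, Dif and dl were higher by log2 changes between 0.15 and 0.21. Their calls held in every fit that left out a library, except Dif in 5 of 6 (adjusted p = 0.052 without replicate 2 of the 34d Mettl3 RNAi heads) and dl in 3 of 6 (up to 0.0842, without replicate 3 of the 34d controls). The ligand gene spz overlapped between genotypes and did not pass (log2 0.06 ± 0.05, adjusted p = 0.442).

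Other genes of the 34d comparison moved as well: of 58 genes of the wider list, 20 rose, led by the amidase gene PGRP-SB1 (log2 0.79) and Ulp1 (log2 0.47), and 7 fell, led by modSP (log2 -0.25) and key (log2 -0.22). Of 16 antimicrobial peptide genes tested, 12 rose and 3 fell, with summed levels of 1170 to 1450 CPM in 34d Mettl3 RNAi heads against 592 to 706 CPM in controls. Of cell type markers, 10 of 11 neuronal genes rose, with summed levels of 4620 to 4810 CPM against 3700 to 3960 CPM, while 1 of 8 fat body genes rose (8220 to 10000 CPM against 7430 to 8640 CPM). How far these markers account for the members' changes was not tested.

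At 5d, none of the 10 genes passed with edgeR or DESeq2, where 0.173% of all genes passed, and 1 was at an unadjusted p under 0.05. That gene was imd, at 19.9, 21.1 and 22.6 CPM in 5d Mettl3 RNAi heads against 25.8, 24.2 and 24.6 CPM in 5d controls (log2 -0.23 ± 0.08, adjusted p = 0.371). The groups of imd, and those of Dif, PGRP-LC and cact (log2 changes of 0.18, 0.29 and 0.15), did not overlap. The share of all genes without overlap was not counted, so no effect is read from this. None of 59 genes of the wider list passed.

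m6A-IP libraries are made from RNA fragments pulled down with an antibody against m6A, so the log2 ratio of IP to input of a gene rises with the share of its RNA that carries the mark. The ratio is relative to the average transcript of the libraries and covers the whole gene. Values per replicate were scaled over all 24 libraries and fitted changes over the libraries of a comparison, so the 2 can differ slightly. The Toll branch genes spz, cact and Tl had the highest ratios of the 10, and Rel the lowest.

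The ligand gene spz had log2 ratios of 2.26, 2.63 and 2.45 in 34d control heads and of 2.34, 2.41 and 2.49 in 5d control heads. Those of the inhibitor gene cact were 1.57, 1.59 and 1.59 at 34d and 1.51, 1.60 and 1.70 at 5d. Tl, the receptor gene, followed with 1.04, 1.48 and 0.94 at 34d and 0.90, 1.09 and 1.16 at 5d. All these replicates stood above 0, whereas Rel stood below it in every one, at -0.89, -1.02 and -0.82 at 34d and -0.74, -0.42 and -0.46 at 5d.

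In the fit of IP against input, 8 of the 10 genes passed in 34d control heads, 7 higher and 1 lower, where 83.8% of all genes passed. Also 8 of 10 passed in 5d control heads, 7 higher and 1 lower, where 81.2% of all genes passed. The median log2 ratio of the 10 genes was 0.62 at 34d and 0.51 at 5d, against -0.17 and -0.14 over all genes. The fitted enrichment of spz was 6.03-fold at 34d and 5.23-fold at 5d. PGRP-LC (log2 -0.02 and 0.03) and pirk (log2 0.05 and -0.19) did not pass at either age. Since the 0 of the ratio depends on scaling, with library totals in place of TMM the median of all genes moved to -0.85 at 34d and -0.55 at 5d, and dl stood at -0.13 and -0.06, no longer above input. Dif was then below input at 34d (log2 -0.33, adjusted p = 1.85e-06) and did not pass at 5d, imd did not pass at either age and PGRP-LB did not pass at 5d. PGRP-LC passed as lower in the IP with library totals, at -0.70 for 34d and -0.38 for 5d, and so did pirk, at -0.62 and -0.59. With library totals 28.5% of all called genes were higher in the IP at 34d (46% with TMM) and 33% at 5d (46.1% with TMM). Of the wider list, Myd88, the Toll adaptor gene, stood highest by its test, with log2 ratios of 2.68 at 34d and 2.31 at 5d.

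**Figure D2:**
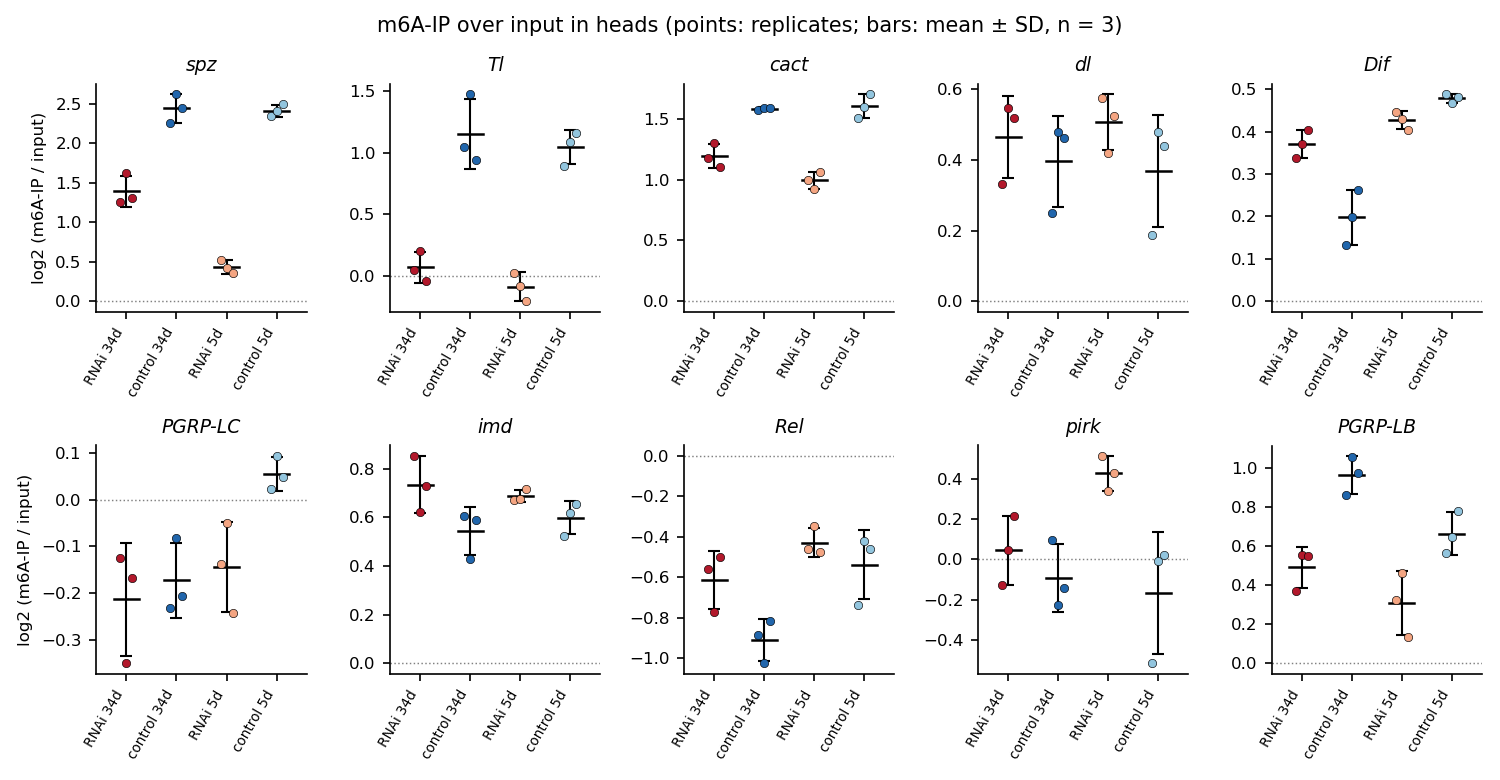
log2 m6A-IP/input ratio (y axis) of the 10 genes in Mettl3 RNAi and control heads at 34d and 5d. Points are replicates, bars the mean ± SD (n = 3) and the dotted line at 0 equal scaled levels in IP and input. For spz, Tl and cact every Mettl3 RNAi replicate stood below every control replicate of the same age.

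With Mettl3 RNAi, the ratios of spz, Tl and cact fell at both ages. At 34d spz had log2 ratios of 1.26, 1.62 and 1.30 in Mettl3 RNAi heads, against 2.26, 2.63 and 2.45 in controls, a 2.24-fold lower ratio (log2 -1.17 ± 0.11, adjusted p = 2.09e-08). For Tl the 34d ratios were 0.05, 0.21 and -0.04 in Mettl3 RNAi heads, against 1.04, 1.48 and 0.94 in controls, 2.30-fold lower (log2 -1.20 ± 0.12, adjusted p = 3.83e-08). The Tl ratios of Mettl3 RNAi heads thus stood near 0, a point set by TMM scaling. For cact they were 1.18, 1.30 and 1.10 in Mettl3 RNAi heads, against 1.57, 1.59 and 1.59 in controls (1.42-fold lower, log2 -0.50 ± 0.10, adjusted p = 0.000343).

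PGRP-LB was the other member lower at 34d, with 0.37, 0.55 and 0.55 in Mettl3 RNAi heads against 0.86, 1.06 and 0.97 in controls (1.5-fold lower, log2 -0.59 ± 0.12, adjusted p = 0.000829). These 4 of the 10 genes passed, all lower, where 32.3% of all genes did. The calls held in every fit without a library. With library totals 65.7% of all called genes were higher under Mettl3 RNAi at 34d, against 39% with TMM, while the direction of the 4 genes held and Rel also passed as higher (log2 0.36, adjusted p = 0.00771).

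At 5d the ratio of spz was 0.52, 0.42 and 0.35 in Mettl3 RNAi heads, against 2.34, 2.41 and 2.49 in controls, 3.95-fold lower (log2 -1.98 ± 0.10, adjusted p = 6.99e-12). Tl stood at 0.03, -0.08 and -0.20 in Mettl3 RNAi heads, against 0.90, 1.09 and 1.16 in controls, 2.19-fold lower (log2 -1.13 ± 0.11, adjusted p = 5.03e-08). Cact stood at 1.00, 0.92 and 1.06 in Mettl3 RNAi heads, against 1.51, 1.60 and 1.70 in controls (1.52-fold lower, log2 -0.61 ± 0.10, adjusted p = 0.000107). None of these 3 overlapped between genotypes, and spz kept the widest gap.

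Pirk had higher ratios at 5d, with 0.52, 0.34 and 0.43 in Mettl3 RNAi heads against -0.52, -0.01 and 0.02 in controls (log2 0.59 ± 0.18, adjusted p = 0.0216), a call kept in 3 of 6 fits without a library (log2 0.42, adjusted p = 0.118 without replicate 1 of the 5d controls, and lost with library totals, adjusted p = 0.0826). In all 4 of 10 members passed at 5d, 1 higher and 3 lower, where 19% of all genes did. Under RLE scaling 39.9% of all called genes were higher, against 26.5% with TMM and 9.33% with library totals. Pli and PGRP-LA of the wider list had the smallest adjusted p among genes with lower ratios, at log2 changes of -2.44 and -1.97 at 34d and -2.21 and -1.71 at 5d. Of its 59 genes tested, 8 rose and 17 fell at 34d, and 2 rose and 11 fell at 5d.

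Changes of the ratio with age were smaller in controls. Rel (log2 -0.37 ± 0.11, adjusted p = 0.0156) and Dif (log2 -0.28 ± 0.10, adjusted p = 0.0466) had lower ratios in 34d than in 5d control heads, 2 of 10 genes where 23.7% of all genes passed. Dif had ratios of 0.13, 0.20 and 0.26 at 34d, against 0.49, 0.47 and 0.48 at 5d, with no overlap. The median of all genes also shifted by -0.16 here, and the split of all calls turned with scaling, with 24.7% of called genes higher under TMM and 71.1% under RLE scaling. Under RLE scaling Rel (log2 -0.19, adjusted p = 0.28) and Dif (log2 -0.10, adjusted p = 0.592) no longer passed, while PGRP-LB passed as higher at 34d (log2 0.48, adjusted p = 0.0132). PGRP-LB also passed with DESeq2 (adjusted p = 0.016) and with no filter on low counts (log2 0.44, adjusted p = 0.0255), where neither Rel nor Dif passed. Leaving out a replicate kept the call of Rel in 4 of 6 fits (up to 0.102, without replicate 2 of the 34d controls) and of Dif in 1 of 6 (up to 0.154, without replicate 1). Of 59 genes of the wider list, 4 had higher ratios, among them eff (log2 0.77), and 14 lower, among them SPE (log2 -0.53) and Traf6 (log2 -0.66).

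In Mettl3 RNAi heads the ratio of spz was 2.02-fold higher at 34d than at 5d (log2 1.01 ± 0.12, adjusted p = 2.65e-05), the only one of the 10 to pass where 3.91% of all genes did. The replicates, at 1.26, 1.62 and 1.30 for 34d and 0.52, 0.42 and 0.35 for 5d, did not overlap. In a test of the difference, chosen after the data were seen, the change of the spz ratio with age was 0.93 ± 0.16 larger in Mettl3 RNAi heads than in controls (adjusted p = 0.00536), where 1.04% of all genes passed and 1 of 10 members did. The call held in all 12 fits that left out a replicate. Mettl3 transcripts themselves stood at 1.82 to 2.20 CPM at 34d and 1.85 to 3.87 CPM at 5d in these Mettl3 RNAi heads.

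To ask how the pathways stand in a model of Alzheimer's disease, heads and brains with neuronal Aβ42 were compared with those of mCD8GFP flies at 6d. In heads, 7 of the 10 genes passed, 6 higher and 1 lower, where 36% of all genes did. The Imd factor gene Rel and the amidase gene PGRP-LB had the highest folds, and the ligand gene spz was lower. The median log2 change was 0.26 over the 10 genes and 0.01 over all genes. The comparison rests on 2 Aβ42 and 3 mCD8GFP head libraries.

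Rel had 198 and 179 CPM in Aβ42 heads, against 109, 106 and 115.1 CPM in mCD8GFP heads (1.72-fold, log2 0.78 ± 0.06, adjusted p = 9.91e-07). PGRP-LB had 32.9 and 21.8 CPM in Aβ42 heads, against 14.6, 13.9 and 13.9 CPM in mCD8GFP heads (1.93-fold, log2 0.95 ± 0.17, adjusted p = 0.00412). Spz had 54.0 and 52.8 CPM in Aβ42 heads, against 63.9, 64.9 and 78.0 CPM in mCD8GFP heads (1.29-fold lower, log2 -0.37 ± 0.09, adjusted p = 0.00562). None of the 3 overlapped, though the Aβ42 replicates of PGRP-LB lay far apart.

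Dl had 95.0 and 84.2 CPM in Aβ42 heads, against 75.7, 65.5 and 72.0 CPM in mCD8GFP heads (1.26-fold, adjusted p = 0.00345). Cact and PGRP-LC were each 1.2-fold higher (adjusted p = 0.00372 and 0.00823). Pirk had 9.26 and 6.07 CPM in Aβ42 heads, against 5.05, 4.79 and 5.46 CPM in mCD8GFP heads (1.5-fold, adjusted p = 0.0201), and kept the call in 2 of 5 fits without a library, while the other 6 calls held in all 5. Without replicate 1 of the Aβ42 heads the log2 change of pirk was 0.25 (adjusted p = 0.36). Imd (adjusted p = 0.0803), Tl and Dif did not pass, and Tl and Dif overlapped between groups.

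Of 59 genes of the wider list, 20 rose, among them POSH (log2 0.86) and Hayan (log2 0.65), and 9 fell, among them the secreted amidase genes PGRP-SC1b (log2 -5.26) and PGRP-SC1a (log2 -5.83). Of cell type markers in Aβ42 heads, 9 of 10 photoreceptor genes fell, with summed levels of 40400 to 41400 CPM against 58300 to 59300 CPM in mCD8GFP heads, and 8 of 11 glial genes fell, with 2600 to 2700 CPM against 3000 to 3140 CPM. Fat body transcripts summed to 6390 to 7550 CPM in Aβ42 heads against 9920 to 13300 CPM, with 2 of 7 tested genes lower. Their part in the members' values was not tested.

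In brains, 5 of the 10 genes passed, 4 higher and 1 lower, where 31% of all genes did. The Toll factor gene dl differed most. Dl had 42.2, 46 and 40.6 CPM in Aβ42 brains, against 13.6, 11.7 and 13.9 CPM in mCD8GFP brains, 3.29-fold higher (log2 1.72 ± 0.09, adjusted p = 2.25e-05). The gap was wide and the call held without any 1 library.

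Rel had 72.4, 125 and 101 CPM in Aβ42 brains, against 61.4, 56.2 and 62.2 CPM in mCD8GFP brains (1.66-fold, log2 0.73 ± 0.20, adjusted p = 0.0457). Pirk had 3.27, 2.57 and 5.61 CPM in Aβ42 brains, against 1.41, 1.72 and 1.39 CPM in mCD8GFP brains (2.54-fold, log2 1.35 ± 0.32, adjusted p = 0.0166). Imd had 16.2, 16 and 18.8 CPM in Aβ42 brains, against 13.8, 13.4 and 13.1 CPM in mCD8GFP brains (1.27-fold, adjusted p = 0.0298). These groups did not overlap, but without 1 library Rel kept the call in 1 of 6 fits, imd in 2 and pirk in 3. The highest adjusted p were 0.138 for Rel without mCD8GFP replicate 2, and 0.0974 for imd and 0.0736 for pirk without mCD8GFP replicate 3.

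Tl was lower, with 113, 113 and 107 CPM in Aβ42 brains against 131, 126 and 123 CPM in mCD8GFP brains (log2 -0.19 ± 0.05, adjusted p = 0.0197), and kept the call in 1 of 6 fits (up to 0.101, without mCD8GFP replicate 1). Spz, cact, Dif, PGRP-LC and PGRP-LB did not pass. Of 54 genes of the wider list tested, 11 rose, led by POSH (log2 1.504) and cactin (log2 1.05), and 8 fell, led by 18w (log2 -0.42) and Pli (log2 -0.31). In Aβ42 brains 5 of 10 hemocyte markers tested fell, with summed levels of 915 to 1010 CPM in Aβ42 brains against 1380 to 1550 CPM and the blood cell gene Hml at 44.6 to 67.8 CPM against 168 to 210 CPM in mCD8GFP brains, and photoreceptor markers summed to 27900 to 36100 CPM against 50100 to 55200 CPM (6 of 10 fell). Summed levels of the other lists were lower without overlap as well, at 3980 to 5180 CPM in Aβ42 brains against 6740 to 8480 CPM for fat body (1 of 7 tested fell), 3990 to 4710 CPM against 5070 to 5210 CPM for glia (6 of 11 fell) and 8890 to 10600 CPM against 11100 to 11400 CPM for neurons (4 of 11 fell), but not for muscle. What these markers contribute to the members' changes was not tested.

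**Figure D3:**
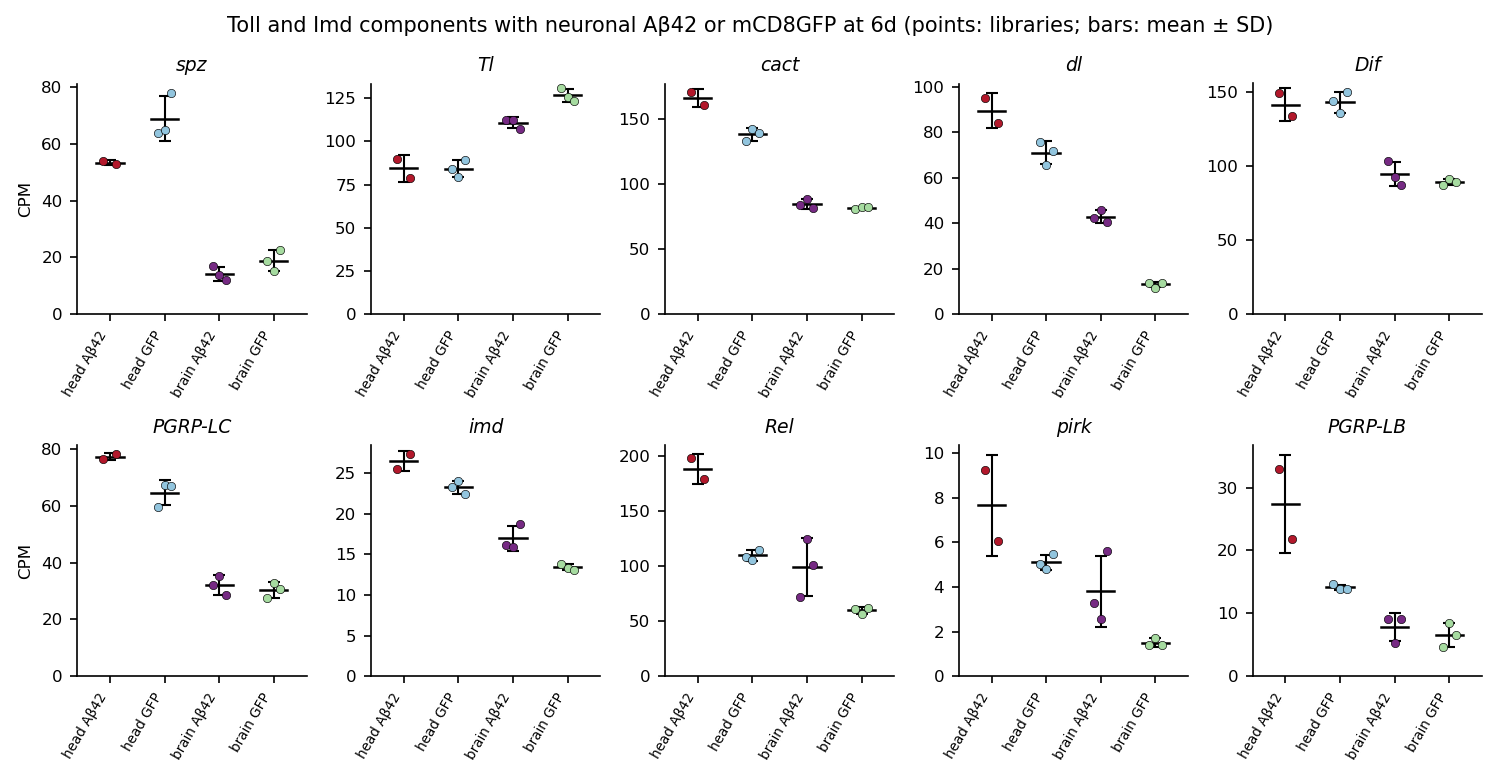
Level of each of the 10 genes (CPM, y axis, own scale per gene) in Aβ42 and mCD8GFP heads (n = 2 and 3) and brains (n = 3 each) at 6d. Points are libraries and bars the mean ± SD. Dl stood at 40.6 to 46 CPM in Aβ42 brains and 11.7 to 13.9 CPM in mCD8GFP brains.

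The m6A-IP/input ratio differed with Aβ42 in heads for 3 of the 10 genes, 2 higher and 1 lower, where 24.4% of all genes passed. Spz had log2 ratios of 1.72 and 1.72 in Aβ42 heads, against 1.51, 1.27 and 1.17 in mCD8GFP heads (log2 0.40 ± 0.09, adjusted p = 0.00176). Cact had 1.04 and 1.16 in Aβ42 heads, against 0.96, 0.77 and 0.81 in mCD8GFP heads (log2 0.26 ± 0.09, adjusted p = 0.023). Rel had -0.63 and -0.46 in Aβ42 heads, against -0.16, -0.14 and -0.16 in mCD8GFP heads (log2 -0.39 ± 0.08, adjusted p = 0.000843).

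The 3 genes did not overlap between groups, and the call held in 5 of 5 fits for spz, 4 of 5 for Rel (adjusted p = 0.0733 without Aβ42 replicate 1) and 1 of 5 for cact (up to 0.274, without Aβ42 replicate 2). Among all called genes 39.2% had higher ratios with TMM and 58.7% with RLE scaling, under which these 3 genes kept their direction and call. In the wider list Pli (log2 0.47) and Myd88 (log2 0.44) were higher and psh (log2 -0.85) and Sp7 (log2 -0.50) lower, of 9 higher and 9 lower among 59.

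To see which brain cells hold the transcripts, repoGFP+ cells were compared with repoGFP- cells of control brains, without pairing by replicate number. Repo, the glial marker of the sort, stood at 244 to 314 CPM in repoGFP+ cells against 2.21 to 3.09 CPM in repoGFP- cells at 5d, and 10 of 11 glial markers were higher in repoGFP+ cells. Neuronal transcripts were present in both fractions, with elav at 136 to 170 CPM in repoGFP+ cells against 162 to 221 CPM in repoGFP- cells. At 5d, 3 of the 10 genes passed, all higher in repoGFP+ cells, where 18.1% of all genes did. The median log2 difference was 1.23 over the 10 genes and -0.02 over all genes.

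PGRP-LC, the Imd receptor gene, had 26.8, 38.4 and 26.4 CPM in repoGFP+ cells, against 0.0631, 2.48 and 0.0754 CPM in repoGFP- cells at 5d, or 1, 36 and 1 counted reads. The fitted difference was 34.3-fold (log2 5.10 ± 1.24, adjusted p = 0.0304). Dl had 29.2, 23.1 and 32.3 CPM in repoGFP+ cells, against 6.5, 3.45 and 9.49 CPM in repoGFP- cells (4.29-fold, log2 2.10 ± 0.43, adjusted p = 0.0156). These groups were well apart, with every repoGFP+ replicate above every repoGFP- replicate.

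Pirk had 13.1, 0.975 and 10.1 CPM in repoGFP+ cells, against 0.379, 0.138 and 0.452 CPM in repoGFP- cells (log2 4.58 ± 1.14, adjusted p = 0.033), where the low replicates held between 2 and 13 reads each. Without 1 library the call was kept in 5 of 6 fits for dl (adjusted p = 0.0619 without repoGFP- replicate 1) and in 1 of 6 for PGRP-LC (up to 0.0742, without repoGFP- replicate 3) and for pirk (up to 0.108, without repoGFP- replicate 2). Without repoGFP- replicate 2, which held 36 PGRP-LC reads where the others held 1 each, the log2 difference of PGRP-LC was 8.58. With all groups of the experiment in 1 fit, dl (log2 2.12, adjusted p = 0.19) and pirk (log2 4.60, adjusted p = 0.0716) did not pass, and without a filter on low counts PGRP-LC did not (adjusted p = 0.0648). Rel (82.2, 64.7 and 45.4 CPM in repoGFP+ cells against 45.6, 33.6 and 32.3 CPM in repoGFP- cells) and Dif (26.8, 40.9 and 73.9 CPM against 3.66, 19.5 and 20.04 CPM) did not pass with edgeR (adjusted p = 0.117 and 0.138). Both passed with DESeq2 (0.0448 and 0.0364) and with all groups of the experiment in 1 fit (0.0351 and 0.0092), and Dif also with the replicate number as a block (0.0469). Of 45 genes of the wider list tested, 6 were higher in repoGFP+ cells, where 13.3% of all genes were. They were led by Myd88 (log2 8.25) and the serpin gene nec (log2 10.43).

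At 34d none of the 9 members tested passed with edgeR, where 6.69% of all genes did. At an unadjusted p under 0.05 there were 2 of 9, where 1029 of 9027 genes were higher in repoGFP+ cells and 619 lower. With DESeq2 2 passed, a count to which the share of 6.69% does not apply. PGRP-LC had 19.6, 21.3 and 19.0 CPM in repoGFP+ cells, against 2.21, 0 and 0 CPM in repoGFP- cells, 27 reads in 1 library and none in the others (adjusted p = 0.16). Rel had 73.1, 95.5 and 121 CPM in repoGFP+ cells, against 37.6, 42.2 and 55.2 CPM in repoGFP- cells (2.11-fold, adjusted p = 0.0608). Neither gene overlapped between fractions. Repo itself stood lower at this age, at 81.4 to 161 CPM in repoGFP+ cells against 0.579 to 5.33 CPM in repoGFP- cells.

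**Figure D4:**
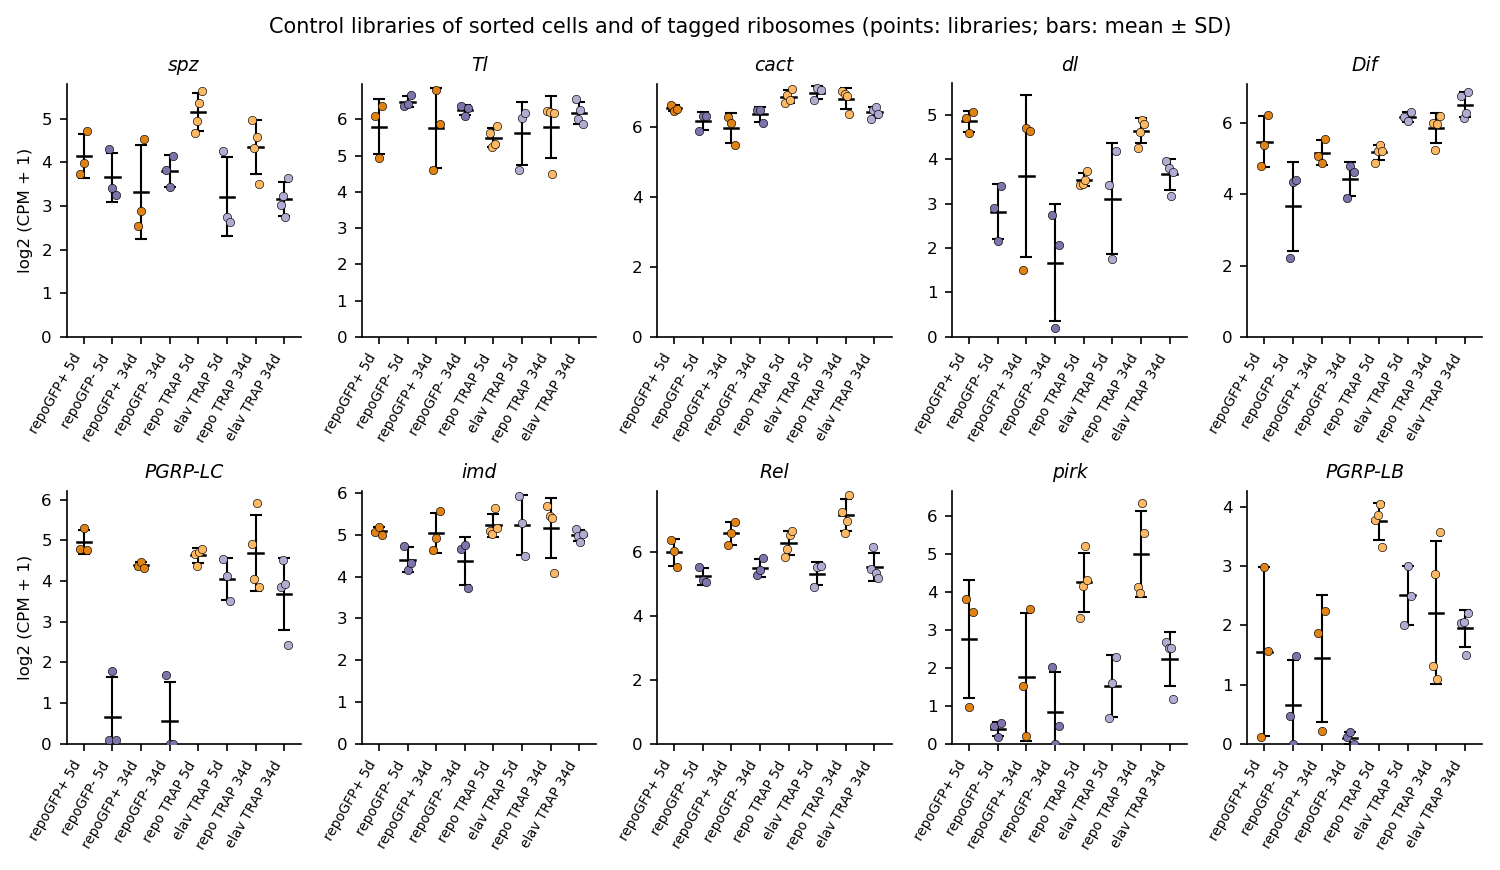
Level of each of the 10 genes (log2 of CPM + 1, y axis) in control libraries by cell type: repoGFP+ and repoGFP- sorted cells, and repo and elav TRAP-IP, at 5d and 34d. Points are replicates (n = 3 or 4) and bars the mean ± SD. PGRP-LC was at 19.0 CPM or more in every repoGFP+ library and at 2.48 CPM or less in every repoGFP- library.

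TRAP gave a second view, with ribosome-bound mRNA of glia (repo TRAP) against that of neurons (elav TRAP) in control brains. Repo stood at 173 to 211 CPM in repo TRAP against 15.1 to 53.3 CPM in elav TRAP at 5d, but elav was not higher in elav TRAP, at 131 to 187 CPM in repo TRAP against 90.3 to 163 CPM in elav TRAP. At 5d, 5 of the 10 genes passed, 4 higher and 1 lower in glia, where 33% of all genes did. At 34d, 4 passed, all higher in glia, where 20.2% did. Pirk, Rel and spz were higher in repo TRAP at both ages. Higher or lower in glia means here in repo TRAP against elav TRAP, between which summed neuronal markers overlapped at both ages.

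Pirk stood at 8.90, 16.8, 35.9 and 18.7 CPM in repo TRAP, against 0.602, 2.02 and 3.88 CPM in elav TRAP at 5d (8.19-fold, log2 3.03 ± 0.59, adjusted p = 0.00241). At 34d it had 16.5, 14.5, 79.5 and 45.3 CPM in repo TRAP, against 5.45, 4.77, 4.77 and 1.26 CPM in elav TRAP (9.60-fold, log2 3.26 ± 0.61, adjusted p = 0.0023). The cell types did not overlap at either age, and the spread among glial replicates was wide. The 5d elav TRAP values rest on 1, 12 and 15 reads.

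Rel had 56.9, 67.9, 91.3 and 100 CPM in repo TRAP, against 28.9, 45.1 and 45.8 CPM in elav TRAP at 5d (1.91-fold, log2 0.94 ± 0.26, adjusted p = 0.0171). At 34d Rel had 152, 95.9, 123 and 218 CPM in repo TRAP, against 42.9, 70.7, 39.5 and 35.1 CPM in elav TRAP (3.17-fold, log2 1.66 ± 0.29, adjusted p = 0.00145). Every repo TRAP library stood above every elav TRAP library of its age. The call at 34d held in all 8 fits without a library and that at 5d in 6 of 7 (adjusted p = 0.0573 without repo TRAP replicate 3).

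Spz had 24.7, 29.7, 40.2 and 48.9 CPM in repo TRAP, against 18.1, 5.72 and 5.18 CPM in elav TRAP at 5d (4.03-fold, log2 2.01 ± 0.45, adjusted p = 0.0058). At 34d it had 30.4, 19.1, 23.2 and 10.4 CPM in repo TRAP, against 7.14, 8.41, 5.68 and 11.6 CPM in elav TRAP (2.56-fold, adjusted p = 0.0427). The groups overlapped at 34d, and that call was kept in 1 of 8 fits (up to 0.126, without repo TRAP replicate 1).

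Dif was the only member called lower in glia in the fit of all libraries, with 28.5, 36.4, 40.4 and 36.4 CPM in repo TRAP against 71.1, 65.1 and 79.0 CPM in elav TRAP at 5d (2.08-fold lower, log2 -1.06 ± 0.20, adjusted p = 0.00205). Replicate 1 of the 5d elav TRAP stood apart, with fat body markers at 1960 CPM against 690 and 627 CPM in its replicates. Without it Tl was also lower in glia (log2 -0.63, adjusted p = 0.0238) and PGRP-LC higher (log2 0.81, adjusted p = 0.0239). At 34d the difference in Dif did not pass (log2 -0.64, adjusted p = 0.0882). In the sorted cells, where RNA of whole cells was measured, Dif was not lower in repoGFP+ cells. PGRP-LB was 2.40-fold higher in glia at 5d (adjusted p = 0.0235, kept in 3 of 7 fits, up to 0.0843 without repo TRAP replicate 3), and dl 2.06-fold higher at 34d (adjusted p = 0.0459, kept in 2 of 8 fits, up to 0.128 without elav TRAP replicate 3).

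PGRP-LC, which differed between the sorted fractions, overlapped between cell types in TRAP at 5d (24.3, 19.6, 25.1 and 26.7 CPM in repo TRAP against 22.3, 16.3 and 10.4 CPM in elav TRAP) and did not pass. Of 54 genes of the wider list tested, 14 were higher and 2 lower in glia at 5d and 9 were higher and 1 lower at 34d, with nec (log2 1.74) and tub (log2 1.78) higher and SPE (log2 -1.03) lower at 5d. Glial markers summed to 12400 to 20600 CPM in repo TRAP against 2580 to 3200 CPM in elav TRAP at 5d, and neuronal markers to 4490 to 6010 CPM against 4970 to 6100 CPM. At 34d the glial sums were 5600 to 9170 CPM in repo TRAP against 1180 to 1520 CPM in elav TRAP. The neuronal sums at 34d were 4640 to 6220 CPM in repo TRAP against 4230 to 5030 CPM in elav TRAP.

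Age was then examined by cell type. In control elavGFP+ cells none of the 10 genes passed with edgeR, where 4.35% of all genes did. At an unadjusted p under 0.05 there were 2 of 10, where 936 of 10953 genes were higher at 34d and 980 lower. With DESeq2 2 passed, a count to which the share of 4.35% does not apply. Rel had 43.1, 52.3, 39.8 and 48.7 CPM in 34d control elavGFP+ cells, against 35.0, 29.0 and 19.8 CPM at 5d (log2 0.72 ± 0.24, adjusted p = 0.141). PGRP-LB had 0.4 to 0.878 CPM at 34d against 1.9 to 2.88 CPM at 5d (log2 -1.998 ± 0.59, adjusted p = 0.0932). Neither gene overlapped between ages. Summed glial markers of these cells stood lower with age, at 2860 to 3800 CPM for 34d against 5950 to 7680 CPM for 5d. Neuronal markers did too, at 10800 to 13200 CPM against 14600 to 19200 CPM. Muscle markers stood higher, at 55.3 to 67.9 CPM against 29.3 to 50.8 CPM. The part of these markers in the members' values was not tested.

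In Mettl3 RNAi elavGFP+ cells, 1 of 10 passed with edgeR, where 3.83% of all genes did. By edgeR 4 of 10 were at an unadjusted p under 0.05, where 1090 of 11188 genes were higher at 34d and 970 lower. With DESeq2 4 passed, a count to which the share of 3.83% does not apply. No excess over all genes is read from it. Dif had 19.9, 18.9, 24.6 and 21.5 CPM in 34d Mettl3 RNAi elavGFP+ cells, against 33.3, 87.0 and 58.3 CPM at 5d (2.78-fold lower, log2 -1.48 ± 0.32, adjusted p = 0.0354), and kept the call in 1 of 7 fits without a library (up to 0.167, without replicate 2 at 5d). It was also lost with the replicate number as a block (adjusted p = 0.0994). Summed glial markers of these cells were at 2790 to 4290 CPM for 34d against 3880 to 10400 CPM for 5d, with overlap. Neuronal markers stood lower, at 10600 to 12600 CPM against 13000 to 15300 CPM. Fat body markers stood higher, at 148 to 223 CPM against 62.6 to 79.6 CPM. What these markers contribute to the values of Dif was not tested. By DESeq2 cact was lower (log2 -1.14, adjusted p = 0.00405), and PGRP-LC (log2 1.87, adjusted p = 0.0149) and Rel (log2 0.80, adjusted p = 0.0477) were higher at 34d. The test of a difference between genotypes in this change gave none of the 10 genes, none of all genes (0%), none at an unadjusted p under 0.05 and none with DESeq2.

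In repoGFP+ control cells none of the 10 genes passed with age, where 0.12% of all genes did, and in repoGFP- cells none of 7 tested, where 1.2% did. No member was at an unadjusted p under 0.05 or passed with DESeq2 in either. Summed glial markers stood lower with age in repoGFP+ cells, at 6320 to 11100 CPM for 34d against 21300 to 29400 CPM for 5d. In repoGFP- cells they were at 489 to 657 CPM against 1010 to 1070 CPM. Neuronal markers of repoGFP+ cells overlapped, at 7370 to 9290 CPM against 8900 to 10800 CPM. The part of these markers in the members' values was not tested. The change with age did not differ between the fractions for any member in edgeR or DESeq2 (0.0305% of all genes passed), and cact was the 1 gene at an unadjusted p under 0.05 (log2 -0.73 ± 0.32). In Mettl3 RNAi repoGFP+ cells no member passed with age by edgeR or DESeq2 or had an unadjusted p under 0.05, and 0% of all genes passed.

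Whole brains of the TRAP experiment (the inputs) held more differences with age. In control inputs of the RepoGal4 line, 3 of the 10 genes rose, where 25.3% of all genes passed. Rel had 140, 74.3, 99.7 and 128 CPM at 34d, against 35.2, 52.6, 57.9 and 46.3 CPM at 5d (2.35-fold, log2 1.23 ± 0.21, adjusted p = 0.00135). Dif had 40.5, 36.4, 35.8 and 35.1 CPM at 34d, against 23.1, 25.1, 26.0 and 22.4 CPM at 5d (1.56-fold, log2 0.64 ± 0.14, adjusted p = 0.00426). Both genes were apart at every replicate and kept the call in all 8 fits, while cact (1.49-fold, adjusted p = 0.0285) kept it in 2 of 8 (up to 0.0868, without replicate 1 at 34d).

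In inputs of the ElavGal4 line, 1 of the 10 genes passed, where 12.9% of all genes did. Cact had 66.4, 60.6, 72.5 and 64.3 CPM at 34d, against 114, 81.4, 78.5 and 105 CPM at 5d (log2 -0.54 ± 0.16, adjusted p = 0.0384, kept in 2 of 8 fits, up to 0.105 without replicate 4 at 5d). Rel had 55.3, 65.0, 50.3 and 45.8 CPM at 34d, against 39.5, 33.1, 38.9 and 44.0 CPM at 5d (log2 0.46 ± 0.17, adjusted p = 0.0943). The ages did not overlap for either gene. Summed glial markers stood lower with age without overlap in both lines. They were at 2160 to 2430 CPM for 34d against 2910 to 4060 CPM for 5d in the RepoGal4 line (5 of 11 genes fell). In the ElavGal4 line they were at 2520 to 3350 CPM against 4300 to 5230 CPM (4 of 11 fell, 1 rose). Neuronal markers of the ElavGal4 line were also lower without overlap, at 2960 to 3740 CPM against 3920 to 4500 CPM. Those of the RepoGal4 line overlapped, at 3360 to 3820 CPM against 3490 to 4370 CPM. The part of these markers in the members' changes was not tested.

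A test of the difference between the driver lines was chosen after the data were seen. It gave none of the 10 genes with edgeR, where 0.415% of all genes passed. By DESeq2 1 passed, a count to which that share does not apply. At an unadjusted p under 0.05 there were 3 of 10, where 900 of 9889 genes had a difference above 0 and 701 below it. The 3 members were cact (log2 1.08 ± 0.24, adjusted p = 0.0521), Rel (log2 0.75 ± 0.27, adjusted p = 0.178) and Dif (log2 0.58, unadjusted p = 0.0498). The wider list had 9 genes higher and 4 lower with age in the RepoGal4 line, among them PGRP-SA (log2 1.22) and scny (log2 0.64) higher and Pli (log2 -0.69) and lwr (log2 -0.51) lower, and 6 higher and 3 lower in the ElavGal4 line, among them PGRP-SB1 (log2 1.69) higher and dnr1 (log2 -0.66) lower, of 54 tested.

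Mettl3 RNAi in single cell types gave few differences in the 10 genes. In elavGFP+ cells at 5d no member passed with edgeR or DESeq2 or had an unadjusted p under 0.05, and 0% of all genes passed. At 34d none of 9 tested passed with either tool, where 0.0366% of all genes did, and PGRP-LC was the 1 at an unadjusted p under 0.05, with 7.40, 12, 5.09 and 2.72 CPM in 34d Mettl3 RNAi elavGFP+ cells against 3.05, 1.45, 0.85 and 0.371 CPM in controls (log2 2.25 ± 0.75, adjusted p = 0.504). Those PGRP-LC values overlapped. Mettl3 itself stood at 0.974 to 1.22 CPM in 34d Mettl3 RNAi elavGFP+ cells against 3.36 to 8.08 CPM in controls.

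In repoGFP+ cells at 5d no member passed with edgeR or DESeq2 and 0% of all genes did. Dl, at 13.3, 4.24 and 1.08 CPM in Mettl3 RNAi repoGFP+ cells against 29.2, 23.1 and 32.3 CPM in controls, did not overlap and was the 1 at an unadjusted p under 0.05 (log2 -2.20 ± 0.79). At 34d no member was at an unadjusted p under 0.05 or passed with either tool, and 0% of all genes passed. The change with age did not differ between genotypes in repoGFP+ cells for any member (0% of all genes, none at an unadjusted p under 0.05, none with DESeq2).

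In 34d TRAP inputs with neuronal Mettl3 RNAi none of the 10 genes passed with edgeR or DESeq2, where 0.43% of all genes did. Rel was the 1 at an unadjusted p under 0.05, with 65.6, 68.0, 92.5 and 62.4 CPM with neuronal Mettl3 RNAi against 55.3, 65.0, 50.3 and 45.8 CPM in controls (log2 0.42 ± 0.15, adjusted p = 0.291). With glial Mettl3 RNAi none passed with edgeR, where 0.877% of all genes did. By DESeq2 1 passed, a count to which that share does not apply. At an unadjusted p under 0.05 there were 2 of 10, where 604 of 9345 genes were higher and 530 lower. Imd had 71.7, 61.4, 50.7 and 74.2 CPM with glial Mettl3 RNAi against 49.3, 44.7, 38.8 and 41.0 CPM in controls (log2 0.56 ± 0.15, adjusted p = 0.0915).

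Rel had 67.5, 68.6, 88.5 and 87.2 CPM with glial Mettl3 RNAi against 140, 74.3, 99.7 and 128 CPM in controls (log2 -0.51 ± 0.18, adjusted p = 0.252). Neither the neuronal nor the glial values of Rel were apart at every replicate, whereas the imd groups with glial Mettl3 RNAi did not overlap. Tab2 (log2 0.83) of the wider list rose and spirit (log2 -2.14) fell with glial Mettl3 RNAi.

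The share of transcripts on ribosomes was examined as the log2 ratio of TRAP-IP to input. In glia at 5d, 5 of the 10 genes passed with ratios above 0 and none with ratios below it, where 56.4% of all genes passed. Since the input is whole brain, the ratio also holds how much of a transcript lies in glia. Pirk had ratios of 2.26, 2.21, 1.93 and 1.90 (4.32-fold, log2 2.11 ± 0.23, adjusted p = 3.62e-07). Cact had 0.86, 0.99, 0.98 and 1.18 (2.06-fold, log2 1.04 ± 0.12, adjusted p = 1.08e-06). These replicates lay close together, and spz (2.02-fold), Rel (1.68-fold) and Dif (1.5-fold) also passed, with all 5 calls kept in every fit without a replicate. With library totals, 77.8% of all called genes were higher in the IP, against 51.1% with TMM. In the wider list Myd88 (log2 1.48) and PGRP-LA (log2 1.18) stood higher and PGRP-SB1 (log2 -1.80) and GNBP3 (log2 -1.71) lower.

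In neurons at 5d, Dif was the 1 of 10 genes to pass, at ratios of 0.29, 1.48 and 1.23 (2.08-fold, log2 1.05 ± 0.29, adjusted p = 0.0381), where 11.1% of all genes did. Leaving out a replicate kept that call in 1 of 3 fits (log2 0.83, adjusted p = 0.3 without replicate 2). Without replicate 1 cact also passed (log2 0.79, adjusted p = 1.04e-05). With library totals 96.9% of all called genes were higher, against 49.1% with TMM. The ratio did not change with Mettl3 RNAi for any member by edgeR or DESeq2, in neurons at 5d (1.54% of all genes passed), in neurons at 34d (0%), in glia at 5d (0.654%) or in glia at 34d (0%). Of these 4 comparisons the only member at an unadjusted p under 0.05 was imd in glia at 34d (log2 -0.99 ± 0.41).

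**Figure D5:**
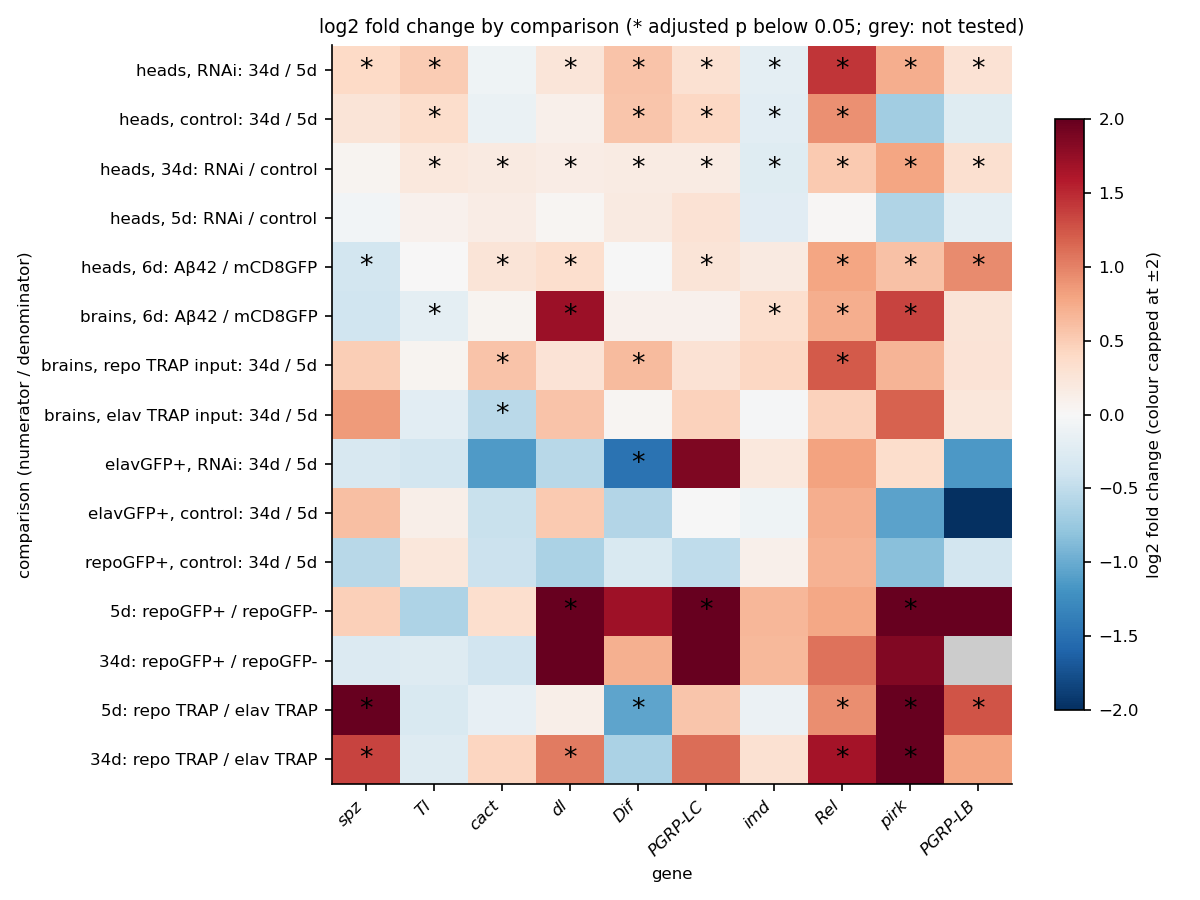
log2 fold change (colour, capped at 2 in either direction) of the 10 genes (columns) in the main comparisons of levels (rows), first-named group over the second, with an asterisk where the adjusted p was under 0.05 and grey where a gene was not tested. Rel was higher with age in control and Mettl3 RNAi heads, with Mettl3 RNAi at 34d and with Aβ42 in heads and brains.

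Genes whose levels moved most like those of the members were found by Pearson's r over the 42 group means, among 8633 genes, each gene centred within its experiment. The groups share experiments and libraries of similar makeup, so r is a description. PGRP-LC was followed most closely, by pst (r = 0.964) and AOX1 (r = 0.955). The next were pirk with AhcyL2 (0.886) and CG12065 (0.882), cact with CG42258 (0.885) and Cwc25 (0.877), PGRP-LB with CG3376 (0.871) and CG4607 (0.858), Rel with CG7766 (0.87) and RpL6 (0.853), and spz with sina (0.868) and olf186-F (0.865). Dif had Sin3A (0.82) and dmt (0.757), Tl had Su(z)2 and drl (0.817 each), imd had CG9312 (0.779) and CG6770 (0.685), and dl had vri (0.714) and CG34423 (0.694). Among the members, the highest r were those of PGRP-LC with pirk (0.777), PGRP-LC with PGRP-LB (0.775), PGRP-LB with pirk (0.663) and Rel with pirk (0.64).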

How the data were processed

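Per the labels and methods, the authors trimmed reads with TrimGalore, aligned them with STAR 2.7.3a to dm6 and counted them on FlyBase exons with summarizeOverlaps. The deposited values are whole-number counts per gene without normalization, in 1 table of 140 libraries. Library totals lay between 2132983 and 36361242, and columns were matched to samples by name. The m6A-IP and TRAP-IP/input ratios were computed here from these counts, with a pseudocount of 0.5 per library for values shown by replicate.

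Each comparison was fitted over all genes kept by filterByExpr by edgeR 4.0.16, using its robust quasi-likelihood test after TMM scaling, in R 4.3.3 with limma 3.58.1. Ratio fits paired the IP and the input of a replicate, and differences between changes were contrasts of the same fit. P-values were adjusted by Benjamini-Hochberg across every gene tested, "called" or "passed" means under 0.05, and standard errors are the log2 change divided by the square root of F. Shares of all genes that passed are those of edgeR with TMM, not of DESeq2. No replicates of a group agreed within sampling noise. Alternatives were DESeq2 1.42.0, RLE scaling, library totals, no filter or a mean of at least 50 counts, the replicate number as a block, 1 fit for all groups, leaving out each replicate, and, chosen after seeing the data, the m6A-IP libraries in place of the inputs and 2 further interactions.

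The members, the wider pathway list (65 genes: 25 of the Toll cascade, 12 Toll-family receptors and Spätzle-like ligands, 28 of the Imd branch), the 18 antimicrobial peptide genes and the cell type markers were chosen with earlier results of these data known. Named genes are the 10 members, Mettl3, up to 2 genes of the wider list with the smallest adjusted p in each direction, and the 2 genes most like each member among those with at least 5 CPM (prior count 2). Coordinates are from the BDGP6 annotation of the dm6 assembly. Python 3.11.15 was used with numpy 2.4.6, pandas 2.3.3 and matplotlib 3.10.9.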

Additional observations from a re-analysis of the deposited data

Results flagged for a closer look

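Single libraries that lay far from the other 3 of their group were looked for in 160 group values of the 10 genes, with Dixon's 95% critical value. Of these, 8 stood out, about the number that chance alone gives at 1 in 20 groups, and they are listed as a description. Among TRAP samples, Tl stood at 21.6 CPM in replicate 3 of the 34d control repo TRAP-IP (the others at 71.5 to 74.4 CPM). Cact stood at 93.0 CPM in replicate 4 of the 5d Mettl3 RNAi repo inputs (59.2 to 63.4 CPM) and at 117.1 CPM in replicate 2 of the 34d Mettl3 RNAi repo TRAP-IP (141 to 146 CPM). Dl stood at 7.92 CPM in replicate 2 of the 34d control elav inputs (10.2 to 10.5 CPM), and pirk at 1.26 CPM in replicate 4 of the 34d control elav TRAP-IP (4.77 to 5.45 CPM).

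In sorted elavGFP+ cells at 34d, replicate 2 stood apart for pirk in both genotypes, at 5.67 CPM with Mettl3 RNAi (the others at 0.955 to 1.36 CPM) and 2.79 CPM in controls (0.3 to 0.554 CPM). Dl stood at 13.5 CPM in replicate 2 of the 34d Mettl3 RNAi cells (1.68 to 3.37 CPM).

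An effect differed between genotypes by a test of the difference in 2 cases. The log2 rise of Rel with age in head inputs was 0.51 larger with Mettl3 RNAi than in controls, and the change of the spz m6A ratio with age was 0.93 larger with Mettl3 RNAi.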

How the results depend on the processing

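Of 90 changes called in the 10 genes, 61 held with every library left out in turn. DESeq2 kept 85 of 90 calls, RLE scaling 87, no filter on low counts 82 and a mean of at least 50 counts 88 of 89, and none of these turned the direction of a called change. Library totals kept 28 of 37 called ratios and turned 3, and the m6A-IP libraries in place of the inputs, chosen after seeing the data, kept 12 of 24 and turned 4. The cause was not tested, except that an m6A-IP level also carries the change of the mark itself.

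Members called moved by more than 1.5 times as follows. With DESeq2, 2 were called in place of 1 for the difference in head aging, 1 in place of 2 for the m6A ratio with age in control heads, 2 in place of 0 for aging of control elavGFP+ cells, 4 in place of 1 for aging of Mettl3 RNAi elavGFP+ cells, 5 in place of 3 for repoGFP+ against repoGFP- cells at 5d and 2 in place of 0 at 34d, 2 in place of 1 for aging of elav-driver inputs, 1 in place of 0 for glial Mettl3 RNAi and 1 in place of 0 for the difference between drivers. RLE scaling gave 1 in place of 2 for the m6A ratio with age in control heads and 1 in place of 0 for the difference between drivers. Fitting all groups of an experiment together gave 2 in place of 1 for aging of Mettl3 RNAi elavGFP+ cells and 1 in place of 0 for repoGFP+ against repoGFP- cells at 34d. For repoGFP+ against repoGFP- cells at 5d the joint fit also called 3, but Dif and Rel in place of dl and pirk. Library totals gave 2 in place of 1 for the TRAP ratio in neurons and 9 in place of 5 in glia. The m6A-IP libraries gave 3 in place of 5 for aging of control heads, 2 in place of 0 for Mettl3 RNAi at 5d, 5 in place of 9 at 34d and 0 in place of 1 for the difference in head aging. A mean of at least 50 counts gave 1 in place of 2 for the m6A ratio with age in control heads. No filter on low counts gave 1 in place of 2 for that ratio, 3 in place of 5 for Aβ42 brains, 5 in place of 3 for the m6A ratio with Aβ42, 2 in place of 1 for aging of Mettl3 RNAi elavGFP+ cells, 1 in place of 0 for repoGFP+ against repoGFP- cells at 34d, 2 in place of 4 for glial against neuronal TRAP-IP at 34d and 1 in place of 0 for the difference between drivers. At all genes DESeq2 called 226 genes in place of 18 for Mettl3 RNAi in 5d heads, 526 in place of 220 for the difference in head aging, 1635 in place of 2545 for the m6A ratio with age in control heads and 690 in place of 11 for aging of control repoGFP+ cells.

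Ratio fits without the replicate block called 0 in place of 2 members for the m6A ratio with age in control heads, 1 in place of 3 for the m6A ratio with Aβ42, 0 in place of 1 for the TRAP ratio in neurons and 0 in place of 1 for the difference in the m6A ratio change with age. Other comparisons were fitted without pairing by replicate number. In none did every pair of same-numbered libraries deviate together at a correlation over 0.1, a rule that cannot exclude pairing. Same-numbered repoGFP+ and repoGFP- libraries may come from the same brains, and correlated at 0.0488, 0.0258 and 0.121 in 5d controls. With the replicate number as a block, 3 in place of 5 members were called for aging of control heads, 3 in place of 5 for Aβ42 brains, 0 in place of 1 for aging of Mettl3 RNAi elavGFP+ cells, 2 in place of 4 for glial against neuronal TRAP-IP at 34d, 0 in place of 1 for aging of elav-driver inputs and 1 in place of 0 for glial Mettl3 RNAi.

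Leaving out 1 library gave between 2 and 7 members called for aging of control heads, 0 and 3 for the difference in head aging, 0 and 2 for the m6A ratio with age in control heads, 1 and 6 for Aβ42 brains, 1 and 5 for the m6A ratio with Aβ42, 0 and 2 for aging of Mettl3 RNAi elavGFP+ cells, 0 and 2 for repoGFP+ against repoGFP- cells at 5d and 0 and 1 at 34d. It gave between 3 and 7 for glial against neuronal TRAP-IP at 5d and 2 and 5 at 34d, 0 and 2 for aging of elav-driver inputs, 0 and 1 for glial Mettl3 RNAi, 0 and 2 for the TRAP ratio in neurons and 0 and 1 for the difference between drivers.

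Signs turned as follows, given as log2 values. In the m6A-IP libraries PGRP-LB stood at 0.20 for aging of control heads and cact at 0.17 for aging of Mettl3 RNAi heads, Tl at -1.06 and cact at -0.46 for Mettl3 RNAi at 5d, Tl at -1.03, spz at -1.14, cact at -0.36, PGRP-LC at -0.026 and PGRP-LB at -0.30 for Mettl3 RNAi at 34d, and dl at -0.12 for the difference in head aging. With library totals the m6A-IP/input ratio of dl was -0.064 and that of PGRP-LC -0.38 in 5d control heads, dl -0.13, Dif -0.33 and pirk -0.62 in 34d control heads, the change with Mettl3 RNAi at 34d was 0.13 for dl and 0.024 for PGRP-LC, and TRAP ratios were 0.54 for Tl, 0.39 for spz, 0.75 for imd and 0.68 for PGRP-LC in neurons and 0.32 for Tl in glia. DESeq2 and RLE scaling gave 0.11 for the m6A-IP/input ratio of PGRP-LC at 34d, 0.16 for cact and 0.12 for imd for the m6A ratio with age, and -0.065 for imd and -0.013 for PGRP-LC for its difference between genotypes. No filter on low counts gave 0.11 for cact and 0.078 for imd for the m6A ratio with age, and 0.080 for dl and 0.073 for Dif for the m6A ratio with Aβ42.

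Leaving out 1 library, log2 values that crossed 0, all of members not called, ranged as follows, with Tl between -0.041 and 0.15, spz between -0.14 and 0.073 and PGRP-LB between -0.34 and 0.030 for Mettl3 RNAi in 5d heads, pirk between -0.27 and 0.0013 for the m6A-IP/input ratio in 5d control heads, Tl between -0.053 and 0.21 for the m6A ratio with age in control heads, imd between -0.049 and 0.15 for the m6A ratio with age in Mettl3 RNAi heads, Tl between -0.093 and 0.097 and Dif between -0.099 and 0.061 for Aβ42 heads. Further such ranges were those of Dif between -0.13 and 0.0495 and pirk between -0.28 and 0.19 for the m6A ratio with Aβ42, dl between -0.40 and 0.88 for aging of control elavGFP+ cells, pirk between -0.61 and 0.81 for aging of Mettl3 RNAi elavGFP+ cells, Tl between -0.13 and 0.41 for Mettl3 RNAi in 5d elavGFP+ cells, dl between -1.963 and 0.12 for Mettl3 RNAi in 34d elavGFP+ cells. The ranges were also pirk between -0.18 and 4.39 for repoGFP+ against repoGFP- cells at 34d, Tl between -0.46 and 0.62 and Dif between -0.62 and 0.14 for aging of control repoGFP+ cells, PGRP-LC between -3.85 and 5.96 for the difference in aging between repoGFP+ and repoGFP- cells, PGRP-LB between -0.73 and 1.46 for Mettl3 RNAi in 5d repoGFP+ cells, PGRP-LC between -0.27 and 0.63 for Mettl3 RNAi in 34d repoGFP+ cells. The others were pirk between -1.07 and 1.54 for the difference in repoGFP+ aging between genotypes, dl between -0.41 and 0.99 and imd between -0.42 and 0.28 for glial against neuronal TRAP-IP at 5d, dl between -0.29 and 0.23 for glial Mettl3 RNAi, Tl between -0.51 and 0.11 for the TRAP ratio in neurons.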
